A study of Homo sapiens with 11 samples.

Results

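The 9 genes described here are known for promoter methylation in colorectal cancer, and were followed through decitabine treatment and Staufen1 knockdown in HCT116, a long-established line of human colorectal carcinoma cells. They are CDKN2A, TIMP3, GATA4, GATA5, SPARC, TFPI2, UCHL1, CDO1 and RASSF1, picked by symbol, and all 9 are among the 58699 genes of the deposited total RNA table. The siRNA was siStau1, which targets Staufen1, or as control siLuc, which targets luciferase. Staufen1 is an RNA-binding protein that recognises double-stranded RNA. The cells received the solvent DMSO or decitabine (DAC), which per the labels was given at 500 nM for 5 days. Crossing siRNA and drug gives 4 groups, each with 2 libraries of total RNA depleted of ribosomal RNA, and values below are given for siLuc cells first, without and with DAC, then for siStau1 cells. The 3 other libraries of the series, enriched with the J2 antibody, were not used. The deposited table holds 1 FPKM value (fragments scaled to transcript length and to the size of the library) for each group and none for a library. The spread between replicates and the depth are therefore unknown, and differences are judged by the authors' own Cuffdiff test, where a gene is called at a q-value under 0.05. The labels do not say whether the paired libraries came from separate cultures, so these tests may measure technical spread only.

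In many colorectal tumours the CpG island at the promoter of a growth-restraining gene becomes methylated, and the gene is then silent although its sequence is intact. Decitabine is a cytosine analogue that is built into replicating DNA and traps DNA methyltransferases, so methylation is lost as cells divide. The 9 genes act in different places: CDKN2A on the cell cycle, RASSF1 in the Hippo kinase pathway, GATA4 and GATA5 as gut transcription factors, TIMP3 and TFPI2 as secreted protease inhibitors, SPARC in the matrix, UCHL1 in ubiquitin turnover and CDO1 in cysteine breakdown. No methylation was measured in the data used here, so the label promoter-methylated is background and was not tested.

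RefSeq promoter windows of 300 bases (250 before the transcript start and 50 after it, GRCh38.p14) were matched by symbol for 7 of the 9 genes, with CDKN2A holding 2 windows. For the 4 genes that the authors' table called under decitabine, the 250 bases before the start are printed because CpG dinucleotides are the sites that methylation uses. Capitals mark each CpG and the strand is that of the gene. SPARC lies at chr5:151686916-151687165 (minus strand), CDO1 at chr5:115816660-115816909 (minus), TFPI2 at chr7:93890754-93891003 (minus) and UCHL1 at chr4:41256678-41256927 (plus).
SPARC: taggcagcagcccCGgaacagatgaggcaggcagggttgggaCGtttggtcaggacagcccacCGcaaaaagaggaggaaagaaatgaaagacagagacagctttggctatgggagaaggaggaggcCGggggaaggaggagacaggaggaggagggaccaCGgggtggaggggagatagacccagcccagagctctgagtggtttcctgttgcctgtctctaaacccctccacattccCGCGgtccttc
CDO1: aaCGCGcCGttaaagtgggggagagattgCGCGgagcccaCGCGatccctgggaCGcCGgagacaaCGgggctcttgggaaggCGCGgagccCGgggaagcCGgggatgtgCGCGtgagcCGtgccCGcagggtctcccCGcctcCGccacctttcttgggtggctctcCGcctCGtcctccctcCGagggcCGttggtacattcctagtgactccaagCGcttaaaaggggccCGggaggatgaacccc
TFPI2: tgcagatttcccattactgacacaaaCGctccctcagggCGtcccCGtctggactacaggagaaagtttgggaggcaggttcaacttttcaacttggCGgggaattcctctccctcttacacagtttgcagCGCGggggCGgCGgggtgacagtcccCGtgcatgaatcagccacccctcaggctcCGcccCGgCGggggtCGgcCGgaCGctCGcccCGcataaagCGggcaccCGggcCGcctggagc
UCHL1: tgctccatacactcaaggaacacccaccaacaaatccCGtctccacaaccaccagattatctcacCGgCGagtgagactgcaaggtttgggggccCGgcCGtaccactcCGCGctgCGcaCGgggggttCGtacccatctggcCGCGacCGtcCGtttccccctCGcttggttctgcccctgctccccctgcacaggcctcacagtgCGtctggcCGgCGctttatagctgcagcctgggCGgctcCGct

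These 250 bases held 7 CpGs in SPARC, 26 in CDO1, 20 in TFPI2 and 20 in UCHL1. Over the full window of 300 bases SPARC had 11, UCHL1 25, TFPI2 26 and CDO1 30, against a median of 21 over 21021 windows of protein-coding genes. Of the genes not called, TIMP3 had 31 and RASSF1 33, above the 4 called genes, while the CDKN2A windows, with 28 and 26, lay among them. The RASSF1 window (50337401 to 50337700) lies well downstream of the outermost annotated start, 50340980. Its number need not be that of the outermost promoter. The windows of the 4 called genes also lie at starts downstream of their outermost annotated start, by less. SPARC was the only gene of the 7 below that median. Its ratio of observed to expected CpGs was 0.40, against 0.92 in CDO1. The GC box GGGCGG, read on both strands, was found in RASSF1, UCHL1, TFPI2, TIMP3 and the proximal CDKN2A window. It was present in 57.0% of protein-coding windows, so its presence sets nothing apart. The TATA motif TATAAA, also read on both strands, was found in UCHL1 alone of these genes and in 9.26% of protein-coding windows.

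**Figure D1:**
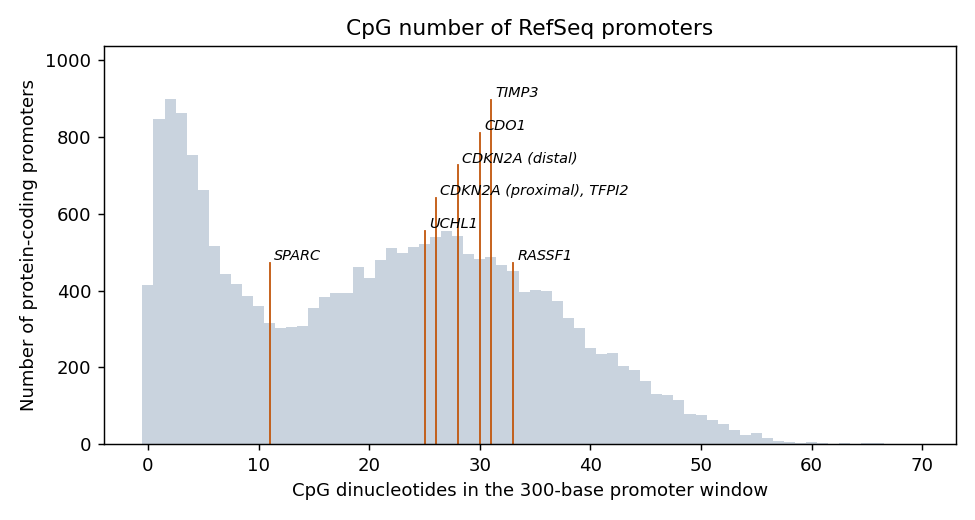
Number of protein-coding RefSeq promoter windows (vertical axis) by their count of CpG dinucleotides in 300 bases (horizontal axis), with vertical lines at the 7 genes that have a window; line heights only separate the names. SPARC stands at 11 CpGs and the other windows between 25 and 33.

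CDKN2A has 2 widely spaced starts. It encodes the cell cycle inhibitor p16INK4a and, from a separate upstream first exon, the nucleolar protein p14ARF, and both starts feed 1 FPKM value. Its windows of 300 bases had 28 CpGs at the distal start and 26 at the proximal one. The 250 bases before each start (distal chr9:21995325-21995574, proximal chr9:21974858-21975107, minus strand) are printed so that the starts can be compared.
CDKN2A distal: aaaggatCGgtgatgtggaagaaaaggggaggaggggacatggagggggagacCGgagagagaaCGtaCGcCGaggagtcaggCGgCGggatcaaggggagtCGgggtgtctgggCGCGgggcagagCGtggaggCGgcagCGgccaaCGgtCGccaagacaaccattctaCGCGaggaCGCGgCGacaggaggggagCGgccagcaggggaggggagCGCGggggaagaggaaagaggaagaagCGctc
CDKN2A proximal: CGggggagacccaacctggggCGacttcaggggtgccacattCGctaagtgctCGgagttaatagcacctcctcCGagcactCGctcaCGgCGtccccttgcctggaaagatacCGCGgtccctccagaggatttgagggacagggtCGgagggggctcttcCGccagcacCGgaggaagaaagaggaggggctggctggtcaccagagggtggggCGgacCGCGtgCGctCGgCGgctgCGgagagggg

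With decitabine 4 of the 9 genes were called higher in siLuc cells and 2 of them also in siStau1 cells. UCHL1, GATA4, GATA5 and TFPI2 were listed at 0 FPKM in both DMSO groups and above 0 in both DAC groups. For 8 of the 9 genes both DAC groups were above both DMSO groups, CDKN2A being the exception. The same held for 42.3% of protein-coding genes above 0 in any group and for 35.2% of all such genes. In siLuc the authors' deposited table called 4 of the 7 tested genes, all higher with DAC: SPARC, UCHL1, CDO1 and TFPI2. Over all genes tested in that comparison it called 13.5%, with 8.71% called higher. In siStau1 it called SPARC and UCHL1 of 7 tested, against 7.46% of all tested genes, 4.56% called higher. At an unadjusted p under 0.05 these counts were 5 and 3. The share of all tested genes at that limit is not given here, so these 2 counts have no background beside them. Of the called genes UCHL1, CDO1 and TFPI2 were listed at 0 in siLuc DMSO, where calls were frequent in general. Of tested genes listed at 0 with DMSO and reaching 1 FPKM with DAC, 62.3% of 427 were called in siLuc. In siStau1 it was 60.9% of 289. Of such genes above 0 and under 0.1 FPKM with DMSO, 11.8% and 11.7% were called. The median log2 ratio of the 7 tested genes was 5.07 in siLuc and 4.89 in siStau1, against 0.23 and 0.11 over all genes tested. UCHL1, TFPI2 and CDO1, at or near 0 with DMSO, entered the test through their DAC values, which itself raises these medians. The siStau1 median falls on CDO1, whose ratio was 2.25 with a pseudocount of 1 and 6.41 with 0.01. Over all 9 genes it was 2.10 and 1.37, but in siLuc this value moved to 0.90 with a pseudocount of 1, 5.09 with 0.01, 1.03 centred by GC content and 0.67 over the genes above 0 in both groups. In siStau1 it moved to 0.72, 4.07 and 0.74 with the first 3 of these settings. GATA4 and GATA5 were too low for the authors' program to test them in any comparison.

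**Figure D2:**
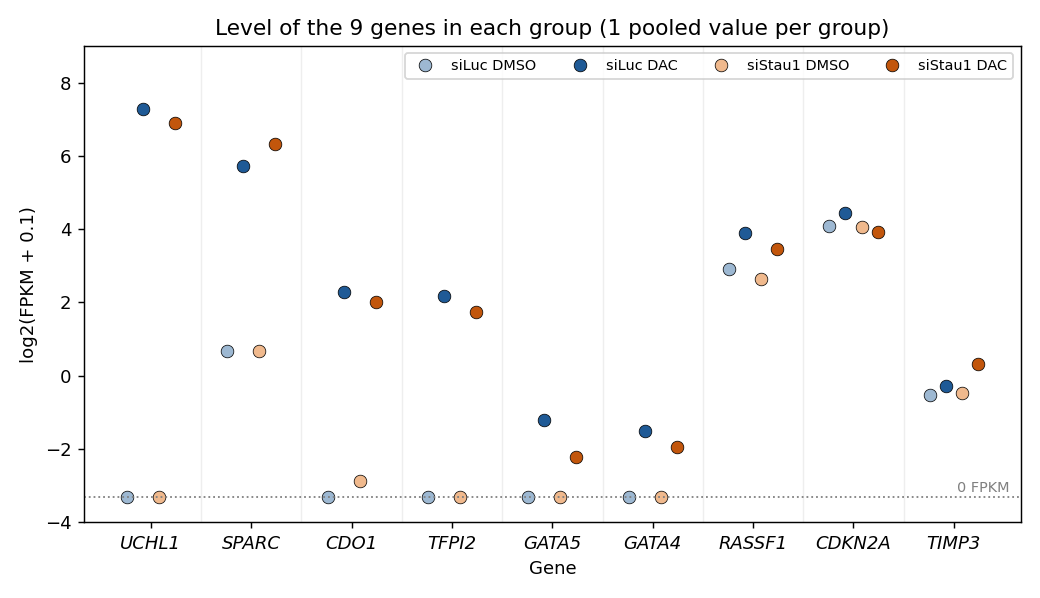
FPKM of each gene in the 4 groups on a log2 scale after adding 0.1 (vertical axis), 1 pooled value per group and no error bars because values per library were not used. UCHL1 and SPARC have the highest DAC points among the genes that were low with DMSO, while the 4 points of CDKN2A lie close together.

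UCHL1 had the widest swing. It is a ubiquitin hydrolase best known from neurons, and its gene (ENSG00000154277.12, chromosome 4, 41256413 to 41268455, GRCh38, plus strand) has 12 annotated transcripts. It was listed at 0 in each DMSO group and reached 155 FPKM with DAC in siLuc cells and 118 in siStau1 cells. No fold is given against a group listed at 0. The authors' table gave UCHL1 a q-value of 0.00162 in both arms, the smallest value that table holds. Of 3585 protein-coding genes listed at 0 in both DMSO groups, 123 reached 1 FPKM in both DAC groups, 18 reached 10 and only 2 reached 100. UCHL1 was 1 of those 2 and ranked 2 of the 3585 by its lower DAC value. The antisense gene UCHL1-AS1, which overlaps it, was listed at 0 in all 4 groups. None of its 7 relatives and ubiquitin genes, all tested, was called for DAC by Cuffdiff, with 5 in siLuc and 1 in siStau1 at an unadjusted p under 0.05. The closest relative, UCHL3, stood at 38.8 FPKM without and 16.4 with DAC in siLuc cells and at 46.9 and 29.2 in siStau1 cells, and was not called for DAC in the authors' table (q-values of 0.203 and 0.503).

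SPARC, a secreted matrix glycoprotein that binds collagen and alters cell adhesion, was the other gene called in both arms. The gene (ENSG00000113140.10, chromosome 5, 151661096 to 151687165, minus strand) stood at 1.48 FPKM without and 52.9 with DAC in siLuc cells, and at 1.48 and 80.6 in siStau1 cells. Both DAC values lie far above both DMSO values. The DAC groups were 35.7-fold and 54.4-fold above their DMSO groups, log2 ratios of 5.07 and 5.67 after adding 0.1 FPKM. In the authors' table both comparisons had a q-value of 0.00162. SPARC ranked 61 among 12901 tested protein-coding genes above 0 with DMSO by that ratio in siLuc, and 33 among 12732 in siStau1. Over the other scalings and pseudocounts tried the ratio stayed between 4.39 and 5.15 in siLuc and between 5.04 and 5.75 in siStau1. Of 12 relatives and collagens, 6 were tested in siLuc, with none called higher and SPOCK3 lower, and 5 in siStau1, with COL1A1 and COL4A2 called higher and SPOCK3 lower. COL4A2 went from 0.0164 to 1.53 FPKM in siLuc cells and from 0.0269 to 1.35 in siStau1 cells. The antisense gene CLMAT3, which overlaps SPARC, was listed at 0 except for 0.0139 FPKM with DAC in siStau1 cells.

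SPARC is abundant in fibroblasts, so fibroblast markers were read beside it. Of 10 markers only COL1A1 and THY1 reached 1 FPKM in any group. The summed level of the 10 was 1.82 FPKM without and 13.8 with DAC in siLuc cells, and 1.37 and 9.26 in siStau1 cells, so it moved with DAC as SPARC did. THY1 was called higher with DAC in both arms (q-values of 0.0157 in siLuc and 0.0194 in siStau1 in the authors' table). COL1A1 was called higher in siStau1 (0.0201) and not in siLuc (0.0587). No other marker of the 10 was called for DAC. DCN and LUM stayed below 0.3 FPKM in every group, and COL1A2 was listed at 0 in both DMSO groups. Of 12 epithelial markers 10 reached 1 FPKM in some group, while VIL1 and CDX1 stayed below it. Their sum was 2723 FPKM without and 8407 with DAC in siLuc cells, and 2226 and 6108 in siStau1 cells. Single markers moved in opposite directions: in siLuc EPCAM was called lower, from 259 to 117 FPKM (q-value 0.0157 in the authors' table), and KRT19, CDX1 and LGALS4 were called higher. The 5 endothelial markers summed to at most 1.77 FPKM and the 6 leukocyte markers to at most 3.60, both highest in siStau1 cells with DAC. In each arm 1 endothelial and 1 leukocyte marker was called, both higher with DAC. These lists also moved with DAC, and their part in the SPARC values was not tested.

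TIMP3, a matrix-bound inhibitor of metalloproteinases, was not called in either arm, although like SPARC it acts outside the cell. It (ENSG00000100234.11, chromosome 22, 32801701 to 32863043, plus strand) stood at 0.598 FPKM without and 0.722 with DAC in siLuc cells, and at 0.616 and 1.15 in siStau1 cells. Its DAC log2 ratios of 0.24 and 0.80 were not called in the authors' table, with q-values of 0.874 and 0.433. When FPKM were rescaled to equal sums the siLuc ratio was −0.33, so its sign there depended on the scaling. TIMP3 lies inside SYN3, on the opposite strand, which stayed at or below 0.134 FPKM.

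The related inhibitors TIMP1 and TIMP2 rose in both arms. TIMP1 had 92.8 and 302 FPKM without and with DAC in siLuc and 63.6 and 211 in siStau1, with a q-value of 0.00162 in both in the authors' table. For TIMP2 the q-values there were 0.0157 and 0.0134, from 16.4 to 36.5 FPKM and from 13.3 to 28.95. Of 12 genes in the list of TIMPs and metalloproteinases without TIMP3, 9 were tested, and 3 were called higher in siLuc and 2 in siStau1 with none lower. MMP2, the third in siLuc, was listed at 0 with DMSO and had 0.778 FPKM with DAC. The genes called were 33.3% of those tested in siLuc and 22.2% in siStau1, against 13.5% and 7.46% of all genes tested.

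TFPI2, a Kunitz-type inhibitor of plasmin and other serine proteases in the matrix, was called in siLuc and not in siStau1. The gene (ENSG00000105825.12, chromosome 7, 93885396 to 93890991, minus strand) was listed at 0 in each DMSO group and with DAC reached 4.42 FPKM in siLuc cells and 3.26 in siStau1 cells. In the authors' table its q-value was 0.0429 in siLuc and 0.227 in siStau1, with p-values of 0.00305 and 0.036. The siLuc call was lost at a q-value limit of 0.01 and against siStau1 DMSO (q-value 0.227 in the authors' table), although TFPI2 was listed at 0 in both DMSO groups. No test compared the arms, and siStau1 against siLuc cells with DAC was not called for TFPI2 in the authors' table (q-value 0.796). GNGT1, a gene on the opposite strand that overlaps it, had 0.596 FPKM without DAC in siLuc cells and was listed at 0 with it, against 0.502 and 0.0804 in siStau1 cells. The paralog TFPI, the main inhibitor of tissue factor, stood at 16.1 FPKM without and 4.96 with DAC in siLuc cells and at 18.5 and 5.53 in siStau1 cells, and was not called (q-values of 0.177 and 0.0898 in the authors' table). Among 9 partners in coagulation and plasmin formation, 7 were tested, and 3 were called higher in both arms with none lower. They included F3 (tissue factor) and PLAUR (the urokinase receptor). The 3 were 42.9% of the tested partners in each arm, against 13.5% and 7.46% of all genes tested. PLAUR had 35.5 FPKM without and 172 with DAC in siLuc cells and 20.4 and 79.3 in siStau1 cells, and was called lower in siStau1 than in siLuc with DAC (q-value 0.0214 in the authors' table).

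CDO1, the dioxygenase that commits cysteine to sulfinate and taurine, went from a listed 0 to 4.80 FPKM with DAC in siLuc cells. Its gene (ENSG00000129596.4, chromosome 5, 115804733 to 115816954, minus strand) went from 0.0364 to 3.94 FPKM in siStau1 cells. Both DAC values were thus far above both DMSO values, yet the authors' table called CDO1 in siLuc (q-value 0.00162) and not in siStau1 (0.579). With the DMSO groups exchanged the calls moved with them: siStau1 DAC against siLuc DMSO was called at 0.00162 and siLuc DAC against siStau1 DMSO was not, at 0.579, all in the authors' table. Of all genes tested in these crossed comparisons, 4.98% and 16.7% were called. They share groups with the comparisons above and are no separate evidence. Among tested genes reaching 1 FPKM with DAC, 62.3% of those listed at 0 with DMSO were called in siLuc, as CDO1 was. In siStau1, 11.7% of those above 0 and under 0.1 FPKM with DMSO were called, and CDO1 was not.

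Of 12 genes of cysteine, glutathione and taurine metabolism, 10 were tested and Cuffdiff called none in any of the 4 comparisons, with 1 at an unadjusted p under 0.05 for DAC in siLuc and 0 in the other 3. ADO, the other thiol dioxygenase of the list, had 9.24 FPKM without and 5.80 with DAC in siLuc cells, and 9.95 and 7.25 in siStau1 cells.

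GATA4 and GATA5, zinc finger factors of gut endoderm, were below 0.4 FPKM in every group. GATA4 (ENSG00000136574.17, chromosome 8, 11676959 to 11760002, plus strand) was listed at 0 in each DMSO group and with DAC reached 0.254 FPKM in siLuc cells and 0.158 in siStau1 cells. GATA5 (ENSG00000130700.6, chromosome 20, 62463497 to 62475970, minus strand) was likewise listed at 0 with DMSO and reached 0.330 and 0.115 FPKM. Neither value was tested by the authors, so no rise is claimed. GATA6, the third gut GATA factor, stood between 0.800 and 1.23 FPKM in the 4 groups and GATA2 between 1.91 and 4.34, and neither was called. Of the 11 relatives and cofactors, 6 were tested in siLuc and 2 were called, both higher, or 33.3% against 13.5% of all genes tested. HNF4A, an intestinal and hepatic nuclear receptor, went from 1.47 to 4.25 FPKM (q-value 0.0439 in the authors' table). NKX2-5, a cardiac homeobox factor and GATA4 partner, was listed at 0 and had 0.907 FPKM with DAC. In siStau1 none of 5 tested genes was called by Cuffdiff, with 1 at an unadjusted p under 0.05, against 7.46% called of all genes tested.

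CDKN2A was expressed throughout and was not called for treatment in the authors' table. The gene (ENSG00000147889.17, chromosome 9, 21967753 to 21995301, minus strand) stood at 16.8 FPKM without and 21.5 with DAC in siLuc cells, and at 16.5 and 15.2 in siStau1 cells. Its DAC log2 ratios were 0.36 in siLuc and −0.12 in siStau1, with q-values of 0.905 and 0.976 in the authors' table. Centring on genes of like GC content turned the siLuc ratio to −0.71, and equal FPKM sums turned it to −0.31, so its sign there was not settled. The transcripts differ in start over 24834 bases, and which of them supplied the reads cannot be read from 1 value per gene. CDKN2B, the neighbouring inhibitor p15INK4b, had 1.62 FPKM without and 4.95 with DAC in siLuc cells, 0.615 and 2.33 in siStau1 cells, and was not called. The antisense RNA CDKN2B-AS1, which overlaps CDKN2A, had between 1.64 and 3.45 FPKM.

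Some kinases and cyclins that p16INK4a restrains were called. Of 12 partners of CDKN2A, 11 were tested, and CDK6, CCND1 and CCND3 were called higher in siLuc and CDK6 and CCND1 in siStau1, with none lower. These were 27.3% and 18.2% of the tested partners, against 13.5% and 7.46% of all genes tested. CDK6 had 7.24 and 30.1 FPKM without and with DAC in siLuc and 7.69 and 20.9 in siStau1. CCND1, which encodes cyclin D1, had 69.6 and 189 FPKM, then 63.2 and 168. For both genes the q-value was 0.00162 in each arm of the authors' table. CDK4, with 158 and 194 FPKM in siLuc and 116 and 144 in siStau1, was not called in either arm, nor were MDM2 and RB1.

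RASSF1, a scaffold of the Hippo kinases, stood at 7.38 FPKM without and 14.6 with DAC in siLuc cells, and at 6.17 and 10.8 in siStau1 cells. Its gene (ENSG00000068028.17, chromosome 3, 50329782 to 50340980, minus strand) gives rise to RASSF1A, the form silenced in tumours, and to RASSF1C from a start further downstream. Annotated starts span 3516 bases and share 1 value. The DAC groups were 1.98-fold and 1.75-fold higher, and neither difference was called in the authors' table, with q-values of 0.156 and 0.398 and p-values of 0.0202 and 0.0925. After centring by GC content the RASSF1 ratios were −0.22 and −0.062 instead of 0.98 and 0.80, so their sign depended on the scaling. The longest RASSF1 transcript is 65.3% GC. Of 16 relatives and Hippo genes, 14 were tested. RASSF7 alone was called, higher with DAC in siLuc (7.35 to 26.0 FPKM, q-value 0.00293 in the authors' table). That was 7.14% of those tested, against 13.5% of all genes tested there. LATS1, LATS2, SAV1 and STK4 were not called in any of the 4 comparisons.

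**Figure D3:**
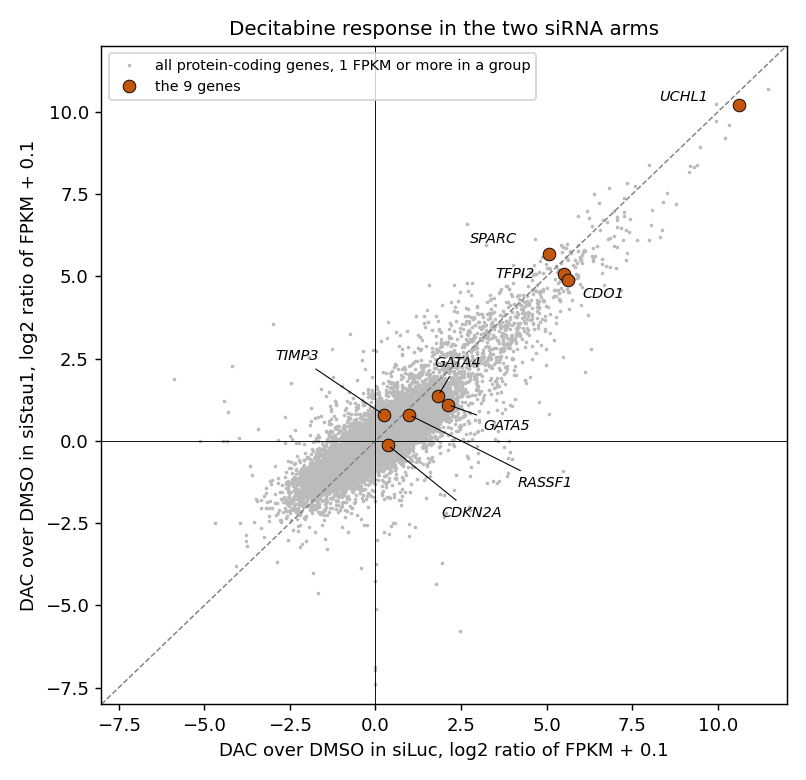
DAC over DMSO as log2 ratio of FPKM + 0.1 in siLuc (horizontal axis) and siStau1 (vertical axis), grey for protein-coding genes with at least 1 FPKM in a group and orange for the 9 genes; the dashed line marks equal ratios. UCHL1, SPARC, TFPI2 and CDO1 lie far up the diagonal, and CDKN2A lies just below 0 in siStau1; positions of genes listed at 0 with DMSO depend on the 0.1 added.

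The knockdown was then examined with and without decitabine. STAU1 itself had 35.5 FPKM without and 33.7 with DAC in siLuc cells, and 29.98 and 27.1 in the groups labelled siStau1. Both siStau1 values thus lay below both siLuc values, but the authors' table called neither difference (q-values of 0.767 and 0.685). A knockdown was therefore not shown by STAU1 mRNA in that test. Without DAC none of the 4 tested genes of the 9 was called by Cuffdiff, with 0 at an unadjusted p under 0.05, against 0.799% of all genes tested. CDKN2A, TIMP3 and RASSF1 had siStau1 over siLuc ratios between −0.25 and 0.04 on the log2 scale, and SPARC had 0.00, the sign of CDKN2A turning with the scaling. The other 5 genes stayed at or near 0 in both groups, where a fall could not be seen.

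Under DAC none of 7 tested genes was called by Cuffdiff, again with 0 at an unadjusted p under 0.05, against 0.904% of all genes tested. UCHL1, CDO1, TFPI2, GATA4, GATA5, RASSF1 and CDKN2A were lower in siStau1 DAC than in siLuc DAC, and SPARC and TIMP3 were higher. SPARC was at 1.52 times its siLuc DAC level (q-value 0.510 in the authors' table) and TIMP3 at 1.59 times (0.599). UCHL1 was at 0.761 times (0.586), RASSF1 at 0.738 times (0.635) and CDO1 at 0.821 times (0.843). The median log2 ratio over the 9 genes was −0.43, and −0.11 over all genes reaching 1 FPKM in each group compared. Relative to that shift, the ratios lay between −0.89 in GATA5 and 0.72 in SPARC. Centring by GC content moved UCHL1, GATA4, RASSF1 and CDKN2A above 0 and the median to 0.072, so a lower level of these genes in siStau1 rests on the scaling. SPARC and TIMP3 stayed higher under each scaling tried.

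**Figure D4:**
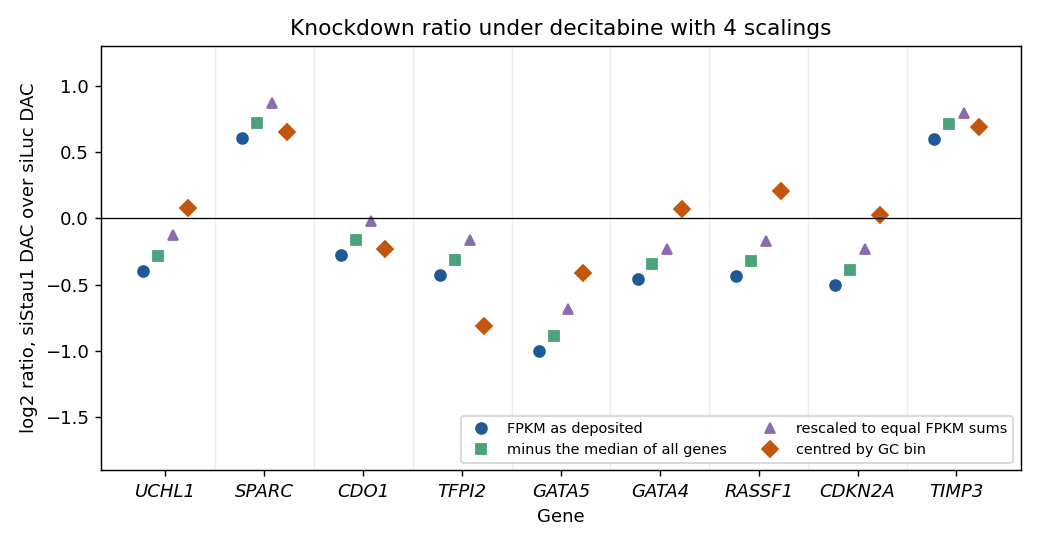
Log2 ratio of siStau1 DAC over siLuc DAC for each gene (vertical axis) with 4 scalings shown by marker. SPARC and TIMP3 lie above 0 with all 4, GATA5, CDO1 and TFPI2 below 0 with all 4, and UCHL1, GATA4, RASSF1 and CDKN2A cross 0 when centred by GC content.

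The DAC response of the 2 arms can be set side by side for the 4 genes above 0 FPKM in every group. Subtracting the siLuc log2 ratio from the siStau1 one gave 0.61 for SPARC, 0.56 for TIMP3, −0.18 for RASSF1 and −0.48 for CDKN2A. With 1 value per group no test of this difference was possible. It cannot be read as a change in response.

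Genes next to the 9 were read to see whether the surroundings moved as well. Overlapping genes and the nearest protein-coding gene on each side came to 26, of which 17 were tested for DAC in siLuc and 15 in siStau1. In siLuc 1 was called higher and 1 lower with DAC. The lower one was MTAP, a methionine salvage enzyme beside CDKN2A, from 111 to 45.8 FPKM (q-value 0.0134 in the authors' table). In siStau1 Cuffdiff called none, with MTAP at 103 and 57.6 FPKM. The median log2 ratio of the tested neighbours was 0.68 in siLuc and 0.43 in siStau1, against 0.23 and 0.11 over all genes tested. No neighbour of SPARC, UCHL1, CDO1 or TFPI2 was called in either arm. ATOX1, beside SPARC, had 38.3 FPKM without and 159 with DAC in siLuc cells, and 36.2 and 120 in siStau1 cells. ATG12, beside CDO1, had between 59.7 and 80.2 FPKM in the 4 groups. GNG11, beside TFPI2, had under 0.01 FPKM in both DMSO groups and 0.823 and 1.45 with DAC in siLuc and siStau1 cells. ZMYND10, which lies 130 bases from RASSF1, had between 0.660 and 1.41 FPKM.

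A list of 50 other genes reported as methylated in colorectal cancer gave 49 genes with a row. In siLuc 28 were tested, and 8 were called higher and 2 lower with DAC, or 35.7%, beside 57.1% of the 7 tested genes above and 13.5% of all genes tested. In siStau1 25 were tested, with 6 higher and 2 lower, or 32.0%, beside 28.6% of those 7 and 7.46% of all. The shares of this list include genes called lower, while every called gene of those 7 was higher. The shares therefore do not rank the lists. The median log2 ratio of the tested genes of this list was 1.77 in siLuc and 0.68 in siStau1, and over all 49 it was 0.63 and 0.52. VIM, the intermediate filament vimentin, rose with DAC, from 1.08 to 44.4 FPKM (siLuc) and from 1.21 to 31.4 (siStau1). CHFR, a mitotic checkpoint ligase, was listed at 0 in each DMSO group and reached 3.99 and 1.87 FPKM. CRABP1, a retinoic acid binding protein, was listed at 0 likewise and reached 2.59 and 0.985 FPKM. ESR1 and ITGA4 were called higher in siLuc, and THBS1 and FBN2 in siStau1.

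Not every gene of that list moved upwards. HLTF, a helicase-like repair factor, fell with DAC, from 28.1 to 6.36 FPKM (siLuc) and from 40.9 to 17.2 (siStau1) (q-values of 0.00162 and 0.00525 in the authors' table). RASSF2, a relative of RASSF1, fell from 4.64 to 1.35 and from 5.03 to 2.10 FPKM. BCAT1, a branched-chain aminotransferase at 0.00259 FPKM without and 4.16 with DAC in siLuc cells, was not called (q-value 0.563) in the authors' table; it was named after its values were seen. For the knockdown under DAC, HLTF alone of the list was called, higher in siStau1 (q-value 0.00293 in the authors' table), and without DAC none of 17 tested was called by Cuffdiff, with 0 at an unadjusted p under 0.05.

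**Figure D5:**
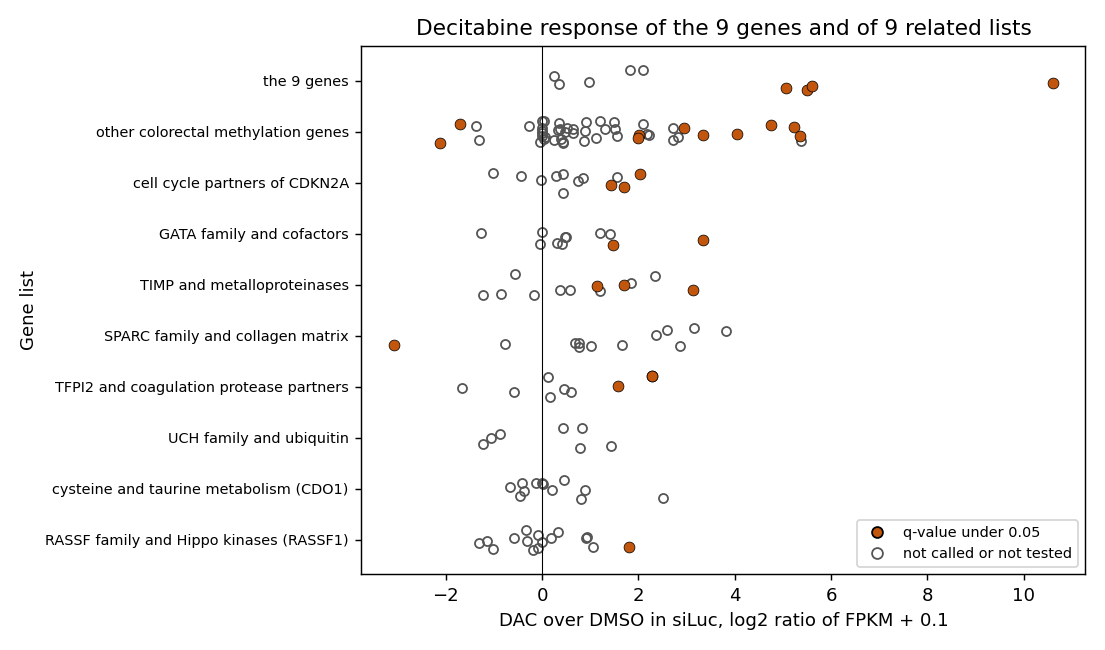
DAC over DMSO in siLuc as log2 ratio of FPKM + 0.1 (horizontal axis) for the 9 genes and 9 related lists (rows); filled points have a q-value under 0.05 in the authors' table and points are spread vertically only to separate them. The lists of ubiquitin genes and of cysteine metabolism hold no filled point, and the 9 genes hold 4, all above 5.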

How the data were processed

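Total RNA of 4 groups of 2 HCT116 libraries was used. The authors deposited FPKM values, 1 per group and gene, with a log2 fold change, a test score, a p-value and a q-value for each of 6 pairwise comparisons, per the file headers in the layout of Cuffdiff. HISAT2 2.1.0, Cuffdiff 2.2.1 and hg38 are listed in the submitters' processing notes with no role. Values per library were not analysed here, so differences were judged by their calls, with the q-value limit set at 0.05; their log2 fold changes and scores were not printed. One gene, not among those named, has unequal values for a group between comparisons. Fold changes are ratios of FPKM, and log2 ratios add 0.1 FPKM to each group, which understates changes of low genes. Gene positions, transcript starts and GC content come from GENCODE release 29 (GRCh38), which holds all 58699 identifiers. Centring subtracts the median log2 ratio of protein-coding genes in the same of 20 bins of GC content of the longest transcript; it was tested on simulated data with 200 changed genes. Promoters come from RefSeq (GRCh38.p14). Python 3.11.15, pandas 2.3.3 and numpy 2.4.6 were used.

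The 9 genes, the related lists and the alternatives were chosen with earlier results of these data known. The genes named are the 9, the called genes of each list (at most 8, largest log2 ratio first), family members to give their level, overlapping and flanking genes, and the genes nearest by pattern. Tables of J2-bound repeat elements carry no gene and were not used. Values per gene sum over transcripts, and whether reads were counted by strand is not given in the sources used here, so overlapping antisense genes are uncertain. Results for a few genes of the lists and surroundings are not reported here.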

Additional observations from a re-analysis of the deposited data

How the results depend on the processing

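No paired analysis was possible because the table gives 1 value per group, and for the same reason leaving out a replicate was not possible. Counts of called genes were 3 in siLuc and 2 in siStau1 under a q-value limit of 0.01, and 4 and 2 with adjustment within each comparison. A minimum of 1 FPKM left them at 4 and 2 by construction, since UCHL1, TFPI2 and CDO1 pass it through the DAC groups alone. With siStau1 DMSO in place of siLuc DMSO, an alternative chosen after seeing the data, the 4 calls for DAC in siLuc became 2 (SPARC and UCHL1). With siLuc DMSO in place of siStau1 DMSO, the 2 calls in siStau1 became 3, CDO1 being added.

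The median of the 9 genes in siLuc falls on GATA5, listed at 0 with DMSO, so it follows the pseudocount by construction; the cause of the other shifts was not tested. For DAC in siLuc it was 2.10, and 0.90 with a pseudocount of 1, 5.09 with 0.01, 1.03 centred by GC content, 1.51 with equal FPKM sums, 5.28 over genes with at least 1 FPKM and 0.67 over genes above 0 in both groups. For DAC in siStau1 it was 1.37, and 0.72 with a pseudocount of 1, 4.07 with 0.01, 0.74 centred by GC content and 4.89 over genes with at least 1 FPKM. The minimum of 1 FPKM itself raises both medians, for the reason given above. For the knockdown under DAC it was −0.43 and turned to 0.072 centred by GC content. Of the remaining counts and medians under the alternatives, 35 moved by at most 1.5 times, as did 93 values of single genes, while 17 moved further. Depth is unknown, so what it limits for GATA4, GATA5 and other low genes cannot be given.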

Other observations

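Genes whose pattern over the 4 groups lay nearest to the genes called in both arms were sought by Euclidean distance of centred log2(FPKM + 0.1). For UCHL1 they were HIST1H4F (distance 0.50), TKTL1 (0.58) and MAGEA4 (0.59). TKTL1, a transketolase-like gene, had 0.0254 FPKM without and 124 with DAC in siLuc cells, and 0.00855 and 91.8 in siStau1 cells. HIST1H4F has near-identical copies, so its value is uncertain. For SPARC they were HDGFL3 (0.19), DPPA2 (0.31) and AL110118.2 (0.32), of which DPPA2, a pluripotency gene, was listed at 0 in each DMSO group and reached 4.24 and 5.21 FPKM with DAC. For the median pattern of the 9 genes they were CMIP, ZBTB42, FBXW5, CYB561D2 and RHOF, at distances of 0.14 to 0.15. The median DAC ratios fall on GATA5 in siLuc and GATA4 in siStau1, both listed at 0 with DMSO. That pattern therefore depends on the 0.1 added, and other pseudocounts were not tried for it. All these likenesses are over 4 values.

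SPARC had the same value in the 2 DMSO groups to the last deposited digit, 1.48246 FPKM. Of 11299 protein-coding genes with at least 1 FPKM in siLuc DMSO, SPARC was the only 1 whose DMSO values agreed within 0.001%.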
